A study of Mus musculus with 4 samples.

Results

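The 10 genes described here encode the subunits of chromatin assembly factor 1 (CAF-1) and the main chaperones that carry histones H3 and H4. They are Chaf1b, Chaf1a and Rbbp4 for CAF-1, Asf1a and Asf1b for ASF1, Hira, Cabin1 and Ubn1 for the HIRA complex, and Daxx and Atrx. They were chosen by name, and each mouse symbol was matched to its Ensembl identifier, which gave 10 of the 43629 gene identifiers counted. All 10 had counts in each of the 4 libraries, and all 10 passed the filter on low counts that left 16500 genes for testing. RNA came from CD117+ hematopoietic stem and progenitor cells (HSPCs) of C57Bl/6 mice whose Chaf1b alleles carry loxP sites (Chaf1b fl/fl), with 2 libraries for each group. Control cells were spinfected with the empty retroviral vector MIGR1 and kept the genotype Chaf1b fl/fl, while the other group received MIGR1-Cre and is labelled Chaf1b (-/-), called Chaf1b-deleted below. In both groups the eGFP-positive cells, which had taken up the vector, were sorted 48 h after spinfection from medium that held LDL and the cytokines IL3 (10 ng/mL), SCF (50 ng/mL) and IL6 (20 ng/mL). The control cells received no Cre, so Cre itself and the deletion cannot be told apart. Mice were killed at 8 to 12 weeks of age, which is stated for all mice and not for these donors alone. The labels do not say whether the 2 libraries of a group came from separate animals, and the p-values measure only the spread between these libraries.

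CAF-1 places new H3-H4 on DNA behind the replication fork, where it is held by the sliding clamp PCNA. ASF1 binds H3-H4 dimers and hands them either to CAF-1 during replication or to the HIRA complex, which deposits the replacement variant of H3 outside replication, mostly in active genes. DAXX with ATRX brings the same variant to telomeres, pericentromeric repeats and retroviral elements, and in blood-forming cells CAF-1 is known for its part in keeping progenitor identity.

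Reads counted on genes numbered 22736626 and 25409926 in control replicates 1 and 2, and 23539015 and 18468637 in Chaf1b-deleted replicates 1 and 2. Values are given as CPM on genes, the count of a gene scaled to the total of reads counted on genes in that library, unless another scale is named. For the 10 genes, the 95% Wilson interval of a single library's CPM reached from 1.6% (Atrx in control replicate 2) to 12.3% (Hira in Chaf1b-deleted replicate 2) to either side, which covers counting error only.

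One library stood apart before any comparison. Xist, the RNA that coats the inactive X chromosome, was at 1.14 and 1.30 CPM in the controls, 336 CPM in Chaf1b-deleted replicate 1 and 1.25 CPM in Chaf1b-deleted replicate 2. The summed level of 4 Y-linked genes (Ddx3y, Eif2s3y, Kdm5d and Uty) was 324 and 306 CPM in the controls, 0.127 CPM in Chaf1b-deleted replicate 1 and 314 CPM in replicate 2. Chaf1b-deleted replicate 1 thus differed from the other 3 libraries in sex-linked transcripts, and the 2 Chaf1b-deleted libraries did not both come from the same single animal. For the 2 controls, which were alike in these genes, this cannot be told. It also held 1815 CPM of 15 interferon-stimulated genes, against 177 and 194 CPM in the controls and 220 CPM in Chaf1b-deleted replicate 2. Of these 15 genes, 15 were over 2-fold above the control mean in Chaf1b-deleted replicate 1 and 1 was in replicate 2. The fold changes of the 10 genes, of the related lists and of the genes named beside them are therefore also given without Chaf1b-deleted replicate 1. That 3-library fit leaves a single deleted library, which is assumed to vary like the controls, and it tested 17336 genes.

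**Figure D1:**
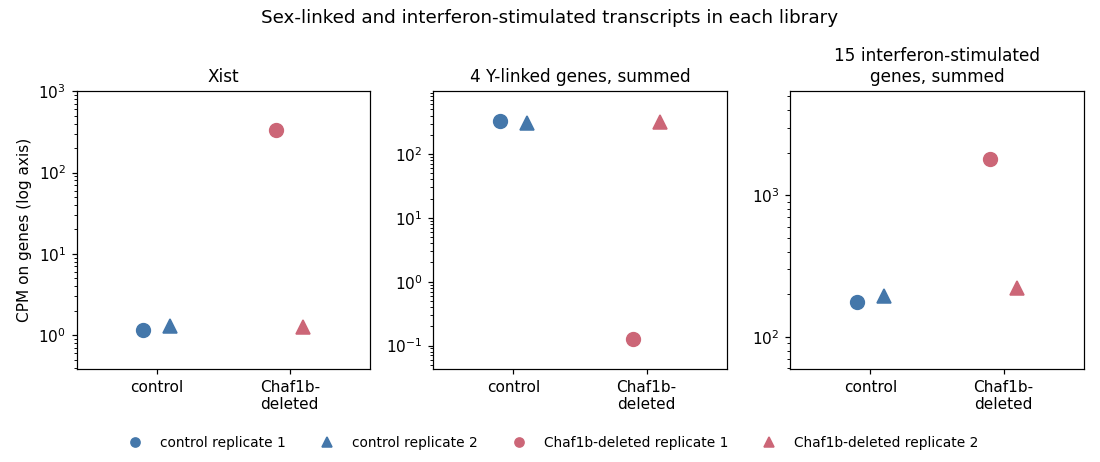
Xist, the sum of 4 Y-linked genes and the sum of 15 interferon-stimulated genes in each library, in CPM on genes on a log axis, with each library drawn as 1 point. Chaf1b-deleted replicate 1 was apart from the other 3 libraries in all 3 panels, with Xist at 336 CPM and the Y-linked genes at 0.127 CPM.

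The HSPC label was checked against marker genes. All 7 HSPC markers were counted in every library, among them Kit, which encodes the CD117 receptor used for the enrichment, at 109 and 124 CPM in the controls and 95.6 and 124 CPM in the Chaf1b-deleted libraries. The 7 genes summed to 1871 and 2120 CPM in the controls and 1871 and 2132 CPM in the Chaf1b-deleted libraries, with Ptprc the most abundant. Within this sum, Cd34 had the highest and Myb the lowest log2 fold change of the 7 markers. Cd34 was at 76.9 and 77.6 CPM in the controls, against 93.4 and 134 CPM after deletion, with a log2 fold change of 0.57 (edgeR adjusted p = 0.325), or 0.71 (adjusted p = 0.205) without Chaf1b-deleted replicate 1. Myb was at 475 and 492 CPM in the controls, against 298 and 335 CPM after deletion, with a log2 fold change of -0.59 (edgeR adjusted p = 0.313), or -0.61 (adjusted p = 0.275) in the 3-library fit. The groups did not overlap for either gene but did for the other HSPC markers, and neither gene was called. Among all genes tested, 22.9% were lower and 21.4% higher without overlap.

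Transcripts of maturing myeloid cells were also plentiful in both groups. The 5 neutrophil markers summed to 44575 and 52197 CPM in the controls and 63719 and 48055 CPM in the Chaf1b-deleted libraries, led by S100a9. Ltf, the highest of them by log2 fold change, was at 4806 and 4968 CPM in the controls, against 10556 and 7571 CPM after deletion (0.94, edgeR adjusted p = 0.373, and 0.55, adjusted p = 0.275, in the 3-library fit). The lowest, Ngp, was at -0.09 (edgeR adjusted p = 0.956), or -0.32 (adjusted p = 0.584) in the 3-library fit, and its groups overlapped. The 4 monocyte and macrophage markers, led by Csf1r in the controls and Adgre1 after deletion, summed to 156 and 337 CPM in the controls and 339 and 299 CPM in the Chaf1b-deleted libraries. Among them Cd14 was at 15.9 and 22.6 CPM in the controls, against 61.3 and 49.7 CPM after deletion, with a log2 fold change of 1.57 (edgeR adjusted p = 0.0758), or 1.29 (adjusted p = 0.0907) in the 3-library fit. The lowest, Csf1r, was at -0.17 (edgeR adjusted p = 0.914), or -0.35 (adjusted p = 0.774) in the 3-library fit. Groups did not overlap for Ltf and Cd14 but did for Csf1r, and 21.4% of all genes tested were higher without overlap. None of these genes was called by edgeR's quasi-likelihood fit, while DESeq2 called Ltf and Cd14 higher and edgeR's exact test Cd14.

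The next values are in the order control replicates 1 and 2, then Chaf1b-deleted replicates 1 and 2. The 4 markers of mast cells or basophils, led by Cpa3 or Mcpt8, summed to 611, 355, 570 and 600 CPM. Of these sums, the basophil gene Mcpt8 made up 267, 224, 296 and 211 CPM. The 3 megakaryocyte markers, led by Itga2b, summed to 88.4, 87.8, 128 and 224 CPM. Megakaryocyte markers were thus highest in Chaf1b-deleted replicate 2, as were the 3 stromal markers, led by Pdgfrb, with 19.8, 10.5, 20.5 and 38.8 CPM. Erythroid markers (4 genes, led by Klf1 or Hbb-b1) summed to between 22.3 and 41.1 CPM. The 3 T cell markers stayed between 0.236 and 0.765 CPM and did not pass the low-count filter, with Cd3e at 0 counts in Chaf1b-deleted replicate 1 and Cd3g at 0 counts in control replicate 1 and Chaf1b-deleted replicate 2. Of the 30 marker genes tested, 0 were called by edgeR at a change of at least 1.5-fold with an adjusted p under 0.05, while 10 higher and 1 lower had an unadjusted p under 0.05, against 9.15% higher and 3.1% lower among all genes tested. DESeq2 called 4 of the 30 higher (Ltf, Cd14, Tpsb2 and Pf4) and edgeR's exact test 3 (Cd14, Tpsb2 and Pf4), against 471 and 518 of 16500 genes. Without Chaf1b-deleted replicate 1, edgeR called 2 of the 3 megakaryocyte markers higher, and 125 of 17336 genes. They were Pf4 at 1.6 (adjusted p = 0.0372) and Itga2b at 1.19 (adjusted p = 0.0449), which with all libraries were at 1.40 (edgeR adjusted p = 0.0986) and 0.90 (edgeR adjusted p = 0.224) without overlap of the groups. In these bulk libraries, fewer cells of a type and less RNA per cell cannot be told apart, and the part of cell makeup in the results below was not tested.

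Chaf1b (ENSMUSG00000022945; mm9 chr16:93884146-93906360, plus strand) encodes the middle subunit of CAF-1, a WD-repeat protein that binds H3-H4 together with Chaf1a, and is the gene targeted by Cre. It had 1825 and 1471 counts in control replicates 1 and 2, and 378 and 330 counts in Chaf1b-deleted replicates 1 and 2. On the CPM scale these were 80.3 and 57.9 in the controls, against 16.1 and 17.9 after deletion. Both deleted libraries lay far below both controls, and they differed less from each other than the controls did. The fitted level after TMM normalization was 24.9% of control, a log2 fold change of -2.01 (SE 0.25, 95% interval -2.58 to -1.44, edgeR adjusted p = 0.0330). Chaf1b was thus called lower, and 62 of the 16500 genes tested (0.376%) were called in either direction by the same rule. Of all genes tested, 1 (0.00606%) was called lower, and it was Chaf1b, but DESeq2 called 32 and edgeR's exact test 35 genes lower. Without Chaf1b-deleted replicate 1 the log2 fold change was -2.03 (SE 0.30, edgeR adjusted p = 0.0251), and 131 of 17336 genes (0.756%) were called, 6 of them lower. The call was lost when a gene needed 10 counts in every library (log2 fold change -2.00, edgeR adjusted p = 0.0651). It was also lost with the replicate number as a block (-1.98, edgeR adjusted p = 0.0590). Over the alternatives in processing, the adjusted p of Chaf1b lay between 1.7e-09 and 0.0651. Among the 16500 genes, Chaf1b ranked 31 from the most lowered by log2 fold change. By p it ranked 1 among the lowered genes and 23 among all. Of these 31 genes, itself among them, 7 had a mean of at least 10 CPM, out of 9291 such genes, so most of them were scarce transcripts. Which exons lie between the loxP sites is not given in the sources used here, and a count per gene does not separate them from the rest of the transcript.

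**Figure D2:**
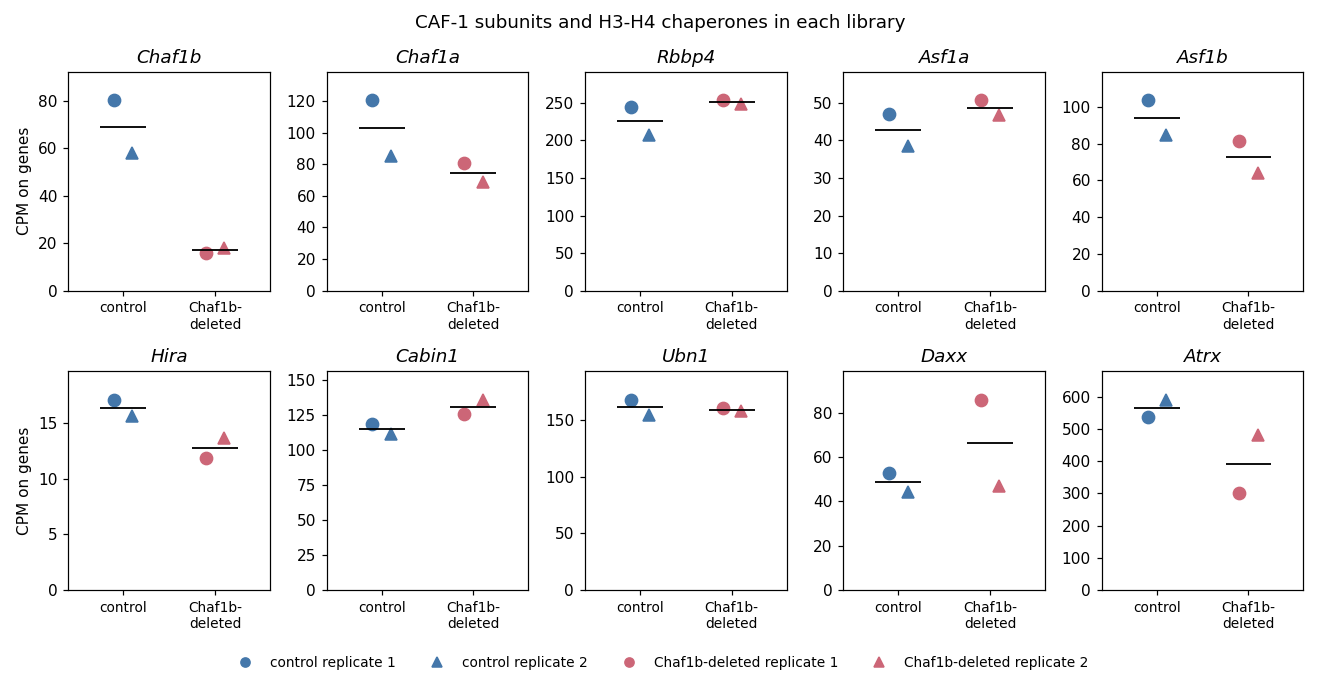
CPM on genes of each of the 10 genes in each library, on axes that start at 0, with points for single libraries and bars for the mean of a group (n = 2). Chaf1b fell from 80.3 and 57.9 CPM to 16.1 and 17.9 CPM, while Daxx was high in Chaf1b-deleted replicate 1 alone (85.9 CPM) and Atrx was lowest there (301 CPM).

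The genes around Chaf1b were counted as well. Morc3, which ends 7829 bases before Chaf1b, was at 204 and 218 CPM in the controls, against 198 and 159 CPM after deletion, with a log2 fold change of -0.20 (SE 0.24, edgeR adjusted p = 0.795), or -0.49 (adjusted p = 0.391) without Chaf1b-deleted replicate 1. The next gene on that side, Dopey2, was at 25.1, 32.3, 31.7 and 51.8 CPM in the same order, with a log2 fold change of 0.54 (SE 0.26, edgeR adjusted p = 0.460), or 0.77 (adjusted p = 0.254) in the 3-library fit. Neither gene was called in either fit. For Morc3 both deleted libraries were below both controls, as for 22.9% of all genes tested, while the groups overlapped for Dopey2. On the other side, Cldn14 had at most 1 count in a library and was not tested, and Sim2 had 6, 8, 12 and 9 counts and was called in neither fit. By the distance between centred log2 CPM values over the 4 libraries, the 5 tested genes with the profile nearest to that of Chaf1b were BC030476, 7SK (ENSMUSG00000087876), ENSMUSG00000097176, Gm15538 and Gm11505, at distances of 0.159 to 0.572. These are scarce transcripts. BC030476, the nearest, had 73 and 66 counts in the controls, against 15 and 14 after deletion (log2 fold change -2.03, SE 0.49, edgeR adjusted p = 0.154). Without Chaf1b-deleted replicate 1 it was at -2.01 (edgeR adjusted p = 0.204), and none of the 5 genes was called in either fit.

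Chaf1a (ENSMUSG00000002835; mm9 chr17:56179827-56206973, plus strand) encodes the large CAF-1 subunit, which contacts PCNA and DNA. It was at 120 and 84.9 CPM in the controls, against 80.4 and 68.4 CPM after deletion. On this scale both deleted libraries were below both controls, although Chaf1b-deleted replicate 1 was close to control replicate 2. After TMM normalization these 2 libraries changed places, at 86.9 CPM for Chaf1b-deleted replicate 1 and 83.4 CPM for control replicate 2, so the groups overlapped. The log2 fold change was -0.43 (SE 0.26, 95% interval -1.03 to 0.17, edgeR adjusted p = 0.569), and without Chaf1b-deleted replicate 1 it was -0.67 (SE 0.27, edgeR adjusted p = 0.348). Chaf1a was called in neither fit. With each library left out in turn, its log2 fold change ranged from -0.67 to -0.15. Chaf1a shares 144 exon bases (5.06% of its exons) with Ubxn6 on the opposite strand, which was at 57.4, 54.7, 60.3 and 55.6 CPM, and the strand setting of the counting is not stated.

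Rbbp4 (ENSMUSG00000057236; mm9 chr4:128984344-129012614, minus strand) encodes the small subunit, a histone-binding WD-repeat protein that is also part of several histone deacetylase complexes and of PRC2. It was at 244 and 208 CPM in the controls, against 253 and 249 CPM after deletion. The deleted libraries were above both controls, by little in the case of control replicate 1, and after TMM normalization the groups overlapped. Its log2 fold change was 0.18 (SE 0.22, edgeR adjusted p = 0.807), or 0.05 (SE 0.22, edgeR adjusted p = 0.930) without Chaf1b-deleted replicate 1. Of its exonic stretches of 31 bases, 8.30% also occur elsewhere in the genome, the largest share of the 10 genes, so its counts are less certain than those of Chaf1b (2.66%) and Chaf1a (0.619%). It shares 782 exon bases (8.94%) with Sync and 796 (9.10%) with Gm17525, both on the opposite strand. Sync had 35, 28, 16 and 30 counts in the order of the libraries above, and Gm17525 is not among the genes counted.

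The upstream sequences of the 3 CAF-1 genes are shown because genes of DNA replication often carry E2F-type motifs. All 10 genes were found in the RefSeq table of GRCm38.p6 start sites, with 3 start sites for Daxx and 1 for each of the others. The 250 bases before each start were searched on both strands for the E2F-type letters TTCCCGC or TTGGCGC or TTCGCGC or TTGCCGC, which are in capitals below in either direction. At least 1 of them was found for Chaf1b, Chaf1a and Rbbp4 and for none of the other 7 genes, and 7.89% of all 32851 such windows held one. Of the 23 S-phase genes named further below, only 18 have a start site in that table, and the others were not searched. Of these 18, 10 held one, so the letters were not confined to CAF-1 genes. The sequences read 5′ to 3′ on the strand of the gene, at chr16:93883651-93883900 (plus) for Chaf1b, chr17:56040166-56040415 (plus) for Chaf1a and chr4:129335371-129335620 (minus) for Rbbp4, all in GRCm38.p6.
Chaf1b: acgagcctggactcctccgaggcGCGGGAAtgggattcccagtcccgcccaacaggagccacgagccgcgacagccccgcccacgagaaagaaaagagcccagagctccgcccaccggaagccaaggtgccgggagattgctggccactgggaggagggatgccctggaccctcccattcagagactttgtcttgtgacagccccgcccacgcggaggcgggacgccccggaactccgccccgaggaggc
Chaf1a: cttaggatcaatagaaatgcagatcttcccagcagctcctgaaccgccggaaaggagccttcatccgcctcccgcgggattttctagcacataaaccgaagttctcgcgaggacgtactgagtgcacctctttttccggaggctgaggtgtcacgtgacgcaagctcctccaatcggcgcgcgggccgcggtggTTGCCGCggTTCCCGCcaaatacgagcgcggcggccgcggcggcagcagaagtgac
Rbbp4: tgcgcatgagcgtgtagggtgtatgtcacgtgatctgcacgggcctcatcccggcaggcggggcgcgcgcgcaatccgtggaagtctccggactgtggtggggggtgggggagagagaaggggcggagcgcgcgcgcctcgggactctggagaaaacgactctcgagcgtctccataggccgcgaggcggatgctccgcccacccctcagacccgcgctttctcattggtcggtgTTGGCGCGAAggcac
Chaf1b has 1 match, to TTCCCGC on the opposite strand, 227 to 221 bases before the start. Chaf1a has TTGCCGC 56 to 50 and TTCCCGC 47 to 41 bases before its start. In Rbbp4, TTGGCGC and the reverse of TTCGCGC overlap, 15 to 6 bases before the start. By single motif, TTCCCGC was in 3.82% of all windows, TTGGCGC in 1.97%, TTCGCGC in 1.28% and TTGCCGC in 1.36%. The ETS-type letters CCGGAAGT (2.88% of all windows) were found for Daxx alone of the 10 genes, and the interferon-type letters GAAANNGAA (7.13%) for none of them. A match describes the letters and no binding was measured.

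Levels of the CAF-1 subunits were also set against each other per length. RPKM, the CPM per kilobase of exons in the NCBIM37 annotation, allows levels to be compared between genes, with the limit that the exon models used for counting may differ. The ratio of Chaf1b to Chaf1a RPKM was 0.379 and 0.388 in the controls, against 0.114 in Chaf1b-deleted replicate 1 and 0.148 in replicate 2. Rbbp4 was 1.74 and 2.05 times the RPKM of Chaf1b in the controls, against 9.02 and 7.96 times after deletion. Relative to Chaf1a, Rbbp4 was at a ratio of 0.661 and 0.795 in the controls, against 1.02 and 1.18 after deletion. The groups did not overlap in any of these 3 ratios, which do not depend on how libraries are scaled, and Chaf1b enters 2 of them. For single genes, 22.9% of all tested were lower and 21.4% higher without overlap. With 2 libraries against 2, an exact permutation test of such a ratio cannot go below p = 0.333, so no test is given.

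**Figure D3:**
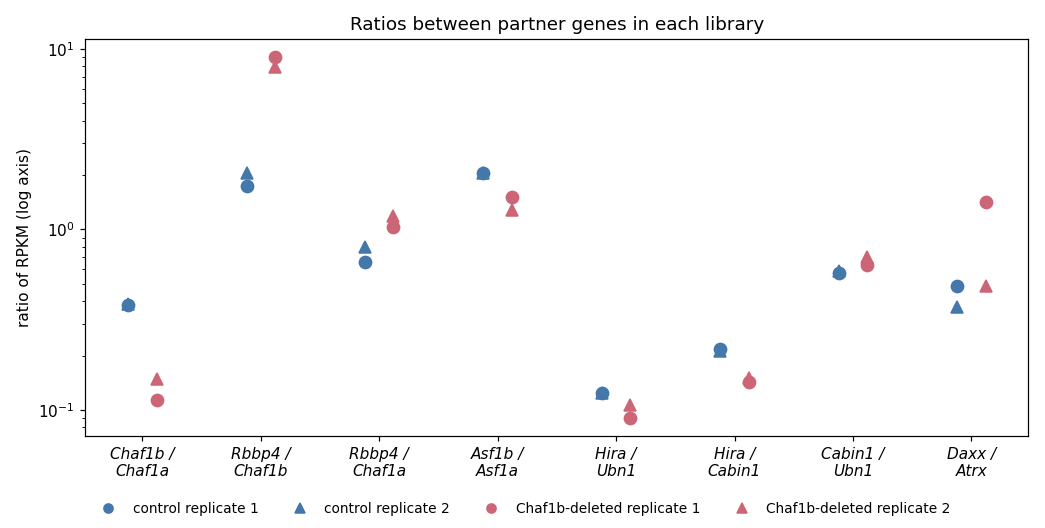
Ratio of RPKM between partner genes in each library, on a log axis, for the 8 pairs compared within a complex, with points for single libraries. Chaf1b over Chaf1a was at 0.379 and 0.388 in the controls and at 0.114 and 0.148 after deletion, and Daxx over Atrx reached 1.42 in Chaf1b-deleted replicate 1 alone.

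Asf1a and Asf1b encode the paralogous ASF1 chaperones that bind H3-H4 dimers, of which Asf1b is the form tied to dividing cells. Asf1a (ENSMUSG00000019857; mm9 chr10:53316767-53329019, plus strand) was at 47.0 and 38.5 CPM in the controls, against 50.6 and 46.8 CPM after deletion. The groups overlapped, and the log2 fold change was 0.22 (SE 0.23, edgeR adjusted p = 0.768), or 0.05 (SE 0.25, edgeR adjusted p = 0.944) without Chaf1b-deleted replicate 1. Asf1b (ENSMUSG00000005470; mm9 chr8:86479406-86494096, plus strand) was at 104 and 84.8 CPM in the controls, against 81.7 and 64.1 CPM after deletion. Both deleted libraries were below both controls on this scale, and after TMM normalization Chaf1b-deleted replicate 1 (88.2 CPM) was above control replicate 2 (83.3 CPM). Its log2 fold change was -0.33 (SE 0.25, 95% interval -0.92 to 0.25, edgeR adjusted p = 0.661), or -0.64 (SE 0.24, edgeR adjusted p = 0.317) without Chaf1b-deleted replicate 1. Neither paralog was called in either fit. With each library left out in turn, the log2 fold change of Asf1b ranged from -0.64 to -0.06. The ratio of Asf1b to Asf1a RPKM was 2.05 in each control library, 1.503 in Chaf1b-deleted replicate 1 and 1.28 in replicate 2. Asf1b was thus above Asf1a in all 4 libraries, and by a smaller factor in both deleted ones.

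The HIRA complex joins the WD-repeat protein Hira with Ubn1, which binds the replacement variant of H3, and Cabin1. Hira (ENSMUSG00000022702; mm9 chr16:18877130-18970402, plus strand) had 390 and 399 counts in the controls, against 280 and 253 after deletion, or 17.2 and 15.7 against 11.9 and 13.7 CPM. Both deleted libraries were below both controls, also after TMM normalization. Hira shares 81 exon bases with Gm15797 on the same strand, which is not among the genes counted. Its log2 fold change was -0.34 (SE 0.26, 95% interval -0.94 to 0.26, edgeR adjusted p = 0.662), and without Chaf1b-deleted replicate 1 it stood at -0.34 (SE 0.32, edgeR adjusted p = 0.677). Cabin1 (ENSMUSG00000020196; mm9 chr10:75108855-75227102, minus strand) was at 119 and 112 CPM in the controls, against 126 and 136 CPM after deletion. Both deleted libraries were above both controls, with a log2 fold change of 0.21 (SE 0.19, edgeR adjusted p = 0.736), or 0.16 (SE 0.21, edgeR adjusted p = 0.781) without Chaf1b-deleted replicate 1. Ubn1 (ENSMUSG00000039473; mm9 chr16:5050161-5086378, plus strand) was at 168 and 155 CPM in the controls, against 161 and 158 CPM after deletion. On this scale the deleted libraries fell between the controls. After TMM normalization they lay on either side of them, at 174 and 149 CPM, against 168 and 152 CPM in the controls. The log2 fold change of Ubn1 was 0.01 (SE 0.21, 95% interval -0.47 to 0.49, edgeR adjusted p = 0.992). It turned to -0.12 (SE 0.21) without Chaf1b-deleted replicate 1. None of the 3 genes was called. The ratio of Hira to Ubn1 RPKM was 0.125 and 0.124 in the controls, against 0.0903 and 0.106 after deletion, and that of Hira to Cabin1 was 0.217 and 0.211 in the controls, against 0.142 and 0.151 after deletion. Cabin1 to Ubn1 stood at 0.575 and 0.588 in the controls, against 0.637 and 0.704 after deletion. The groups did not overlap in these ratios, which were not tested. For single genes, not ratios, 22.9% were lower and 21.4% higher without overlap.

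Daxx and Atrx form a chaperone and remodeller pair, in which Daxx binds the histones and Atrx is the ATP-dependent remodeller. Daxx (ENSMUSG00000002307; mm9 chr17:34046359-34052534, plus strand) was at 52.8 and 44.3 CPM in the controls, 85.9 CPM in Chaf1b-deleted replicate 1 and 46.9 CPM in Chaf1b-deleted replicate 2. It was high in Chaf1b-deleted replicate 1 alone, the library with high interferon-stimulated genes, and replicate 2 lay between the controls. The log2 fold change was 0.51 (SE 0.34, 95% interval -0.29 to 1.30, edgeR adjusted p = 0.613) with all libraries and -0.13 (SE 0.25, edgeR adjusted p = 0.852) without Chaf1b-deleted replicate 1, so its direction rests on that library. The interferon-stimulated genes summed to 1815 CPM in that library and 220 CPM in the other deleted one, and their part in the Daxx value was not tested.

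Atrx (ENSMUSG00000031229; mm9 chrX:102992954-103124736, minus strand) is the only one of the 10 genes on the X chromosome. It was at 537 and 591 CPM in the controls, 301 CPM in Chaf1b-deleted replicate 1 and 481 CPM in replicate 2. Both deleted libraries were below both controls, and the lowest value was in Chaf1b-deleted replicate 1, the library with Xist at 336 CPM. Its log2 fold change was -0.52 (SE 0.25, 95% interval -1.11 to 0.06, edgeR adjusted p = 0.468), the lowest adjusted p of the 9 genes other than Chaf1b, and it was -0.31 (SE 0.21, edgeR adjusted p = 0.565) without Chaf1b-deleted replicate 1. The ratio of Daxx to Atrx RPKM was 0.489 and 0.372 in the controls, 1.42 in Chaf1b-deleted replicate 1 and 0.485 in replicate 2. The pair thus had the order Atrx over Daxx in 3 libraries and the reverse in Chaf1b-deleted replicate 1. The part of the sex-linked difference between libraries in these values was not tested.

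By mean RPKM in the controls (n = 2), the order from high to low was Asf1b at 40.3 ± 5.68 (SD), Atrx at 37.1 ± 2.51, Chaf1a at 36.1 ± 8.79, Rbbp4 at 25.9 ± 2.97, Ubn1 at 25.04 ± 1.47, Asf1a at 19.6 ± 2.77, Daxx at 15.9 ± 1.98, Cabin1 at 14.6 ± 0.608, Chaf1b at 13.8 ± 3.16 and Hira at 3.11 ± 0.194. The control libraries of the first 3 overlapped, as did those of Rbbp4 with Ubn1, Daxx with Cabin1, and Cabin1 with Chaf1b. The remaining neighbours in this order were apart in both control libraries. After deletion Chaf1b was at 3.39 ± 0.256 RPKM (SD, n = 2), still above Hira at 2.43 ± 0.242, and these 2 genes were the lowest of the 10 in both groups. After deletion these 2 genes also had the lowest counts of the 10, so counting error weighed most on them there.

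Of the 10 genes, 1 was called lower and 0 were called higher, against 0.376% of all genes tested, and the gene called is the one the Cre vector targets. Among the 9 others, the edgeR adjusted p lay between 0.468 and 0.992, and 0 had an unadjusted p under 0.05. Chaf1a and Asf1b depended on single libraries. Without Chaf1b-deleted replicate 1 their log2 fold changes were -0.67 and -0.64, and without Chaf1b-deleted replicate 2 they were -0.21 and -0.06. Without control replicate 1 they were -0.15 and -0.17. DESeq2 and edgeR's exact test also called Chaf1b alone of the 10. With all libraries 5 of the 10 log2 fold changes were above 0 and 5 below, with a median of -0.16, against a median of -0.03 over all genes tested. Ubn1, at 0.01, was below 0 when only library size was used for scaling (-0.02). Without Chaf1b-deleted replicate 1, Ubn1 (-0.12) and Daxx (-0.13) were below 0. With all libraries but without the gene Chaf1b, the median of the other 9 was 0.01. On the CPM scale the groups did not overlap for 5 of the 10 genes in the lower direction and for 2 in the higher direction. Among all genes tested, 22.9% were lower and 21.4% higher without overlap. After TMM normalization the numbers were 3 and 1 of 10, against 21.4% lower and 22.3% higher among all genes tested.

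**Figure D4:**
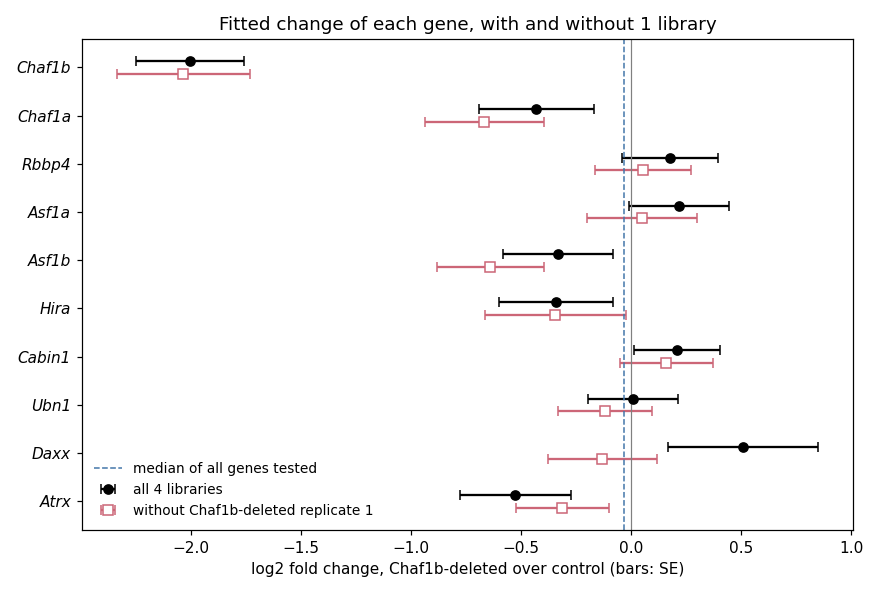
Log2 fold change of each of the 10 genes, Chaf1b-deleted over control, with SE as bars, from edgeR on all 4 libraries (filled circles) and without Chaf1b-deleted replicate 1 (open squares), and the median of all genes tested (-0.03) as a dashed line. Chaf1b was at -2.01 and -2.03, and Daxx moved from 0.51 to -0.13.

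Related genes were described by 5 lists of 74 genes in all. Of these 74, 0 were called in edgeR's quasi-likelihood test, against 62 of 16500 genes tested. At an unadjusted p under 0.05 in that test, 5 were lower and 0 higher, against 3.1% lower and 9.15% higher among all genes. DESeq2 and edgeR's exact test each called 1, Mki67, lower, against 32 and 35 of all genes tested. The log2 fold changes of the 74 genes were below 0 for 62 and above 0 for 12. Among all genes tested, 47.48% were above 0. The median of the 74 was -0.26, against -0.03 for all genes tested. Groups did not overlap on the CPM scale for 41 genes in the lower and 2 in the higher direction, against 22.9% and 21.4% of all genes. Without Chaf1b-deleted replicate 1, 68 of the 74 were below 0 and the median was -0.38, against -0.02 for all genes in that fit. Control replicate 1 was the highest library in the sum of each list except the G2 and mitosis genes. List medians without that control were not computed, so how far they rest on it was not tested.

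The list closest to the 10 genes holds 18 other H3-H4 chaperones and ASF1 partners. Of them 15 had a log2 fold change below 0 and 3 above, with a median of -0.16. The groups did not overlap for 8 genes in the lower and 1 in the higher direction, against 22.9% and 21.4% of all genes. The lowest was Supt16, which encodes the large subunit of the FACT chaperone, at 399 and 301 CPM in the controls, against 226 and 254 CPM after deletion (log2 fold change -0.53, SE 0.23, edgeR adjusted p = 0.424). The highest was Spty2d1, the mouse counterpart of the yeast H3-H4 chaperone Spt2, at 67.6 and 80.7 CPM in the controls, against 95.1 and 100 CPM after deletion (log2 fold change 0.43, SE 0.20, edgeR adjusted p = 0.470). For both genes the groups were apart, yet neither passed the threshold. Summed, the 18 genes were at 3461 and 3039 CPM in the controls, against 2609 and 2862 CPM after deletion. In the fit without Chaf1b-deleted replicate 1, 15 of the 18 were below 0 with a median of -0.22, Supt16 was at -0.55 (edgeR adjusted p = 0.402) and Spty2d1 at 0.36 (edgeR adjusted p = 0.534).

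Among 10 proteins that bind CAF-1 or work beside it in heterochromatin, 7 had a log2 fold change below 0 and the median was -0.11. Groups did not overlap for 4 of the 10 in the lower and 0 in the higher direction, against 22.9% and 21.4% of all genes. Cbx5, which encodes the heterochromatin protein HP1 alpha, was the lowest, at 481 and 467 CPM in the controls, 228 CPM in Chaf1b-deleted replicate 1 and 377 CPM in replicate 2. Its log2 fold change was -0.64 (SE 0.25, edgeR adjusted p = 0.352). Hdac1, a histone deacetylase gene, was the highest at 0.21 (SE 0.24, edgeR adjusted p = 0.797). When Chaf1b-deleted replicate 1 was left out, 8 of the 10 were below 0, the median was -0.21, Cbx5 was at -0.41 (edgeR adjusted p = 0.451) and Hdac1 at 0.42 (edgeR adjusted p = 0.500).

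Of the 8 chaperones of the other histone pair, H2A-H2B, 4 were lower and 0 higher without overlap, against 22.9% and 21.4% of all genes. All 8 had a log2 fold change below 0, with a median of -0.29. They ranged from Npm1, nucleophosmin, at -0.47 (SE 0.32, edgeR adjusted p = 0.612) to Set at -0.03 (SE 0.30, edgeR adjusted p = 0.980), and control replicate 1 was the highest library for their sum, with 3055 CPM against 1978 CPM in control replicate 2 and 1948 and 1839 CPM after deletion. Leaving out Chaf1b-deleted replicate 1, 7 of the 8 were below 0 and 1 above, with a median of -0.48, Npm1 at -0.73 (edgeR adjusted p = 0.369) and Set at -0.32 (edgeR adjusted p = 0.672).

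CAF-1 acts in S phase, so genes of the cell cycle were set beside it. Of the 23 S-phase genes, 11 were lower and 1 higher without overlap of the groups, against 22.9% and 21.4% of all genes tested. In this list 18 genes were below 0, with a median log2 fold change of -0.26. They ranged from Mcm6, a subunit of the replicative helicase, at -0.51 (SE 0.24, edgeR adjusted p = 0.451) to Ccne1, cyclin E1, at 0.26 (SE 0.28, edgeR adjusted p = 0.775). The list summed to 4077 and 3341 CPM in the controls, against 3052 and 2942 CPM after deletion. All 23 were below 0 without Chaf1b-deleted replicate 1, the median was -0.37, Mcm6 was at -0.72 (edgeR adjusted p = 0.220) and Ccne1 turned to -0.07 (edgeR adjusted p = 0.925).

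Of the 15 G2 and mitosis genes, 14 were below 0 and the median was -0.36. For 14 of them each deleted library was below each control, as for 22.9% of all genes tested. Mki67, a marker of dividing cells, was at 2943 and 3193 CPM in the controls, 1002 CPM in Chaf1b-deleted replicate 1 and 1860 CPM in replicate 2 (log2 fold change -1.10, SE 0.33, edgeR adjusted p = 0.229). The highest of the list was Cdc20, an activator of the anaphase-promoting complex, at 0.12 (SE 0.25, edgeR adjusted p = 0.894). The 15 genes summed to 6379 and 6727 CPM in the controls, against 3475 and 4434 CPM after deletion. All 15 were below 0 without Chaf1b-deleted replicate 1, the median was -0.50, Mki67 was at -0.80 (edgeR adjusted p = 0.158) and Cdc20 turned to -0.23 (edgeR adjusted p = 0.693). Chaf1a and Asf1b, at -0.43 and -0.33, lay within the range of the S-phase genes (-0.51 to 0.26). So did Hira (-0.34), Ubn1 (0.01), Rbbp4 (0.18), Cabin1 (0.21) and Asf1a (0.22), while Chaf1b (-2.01), Atrx (-0.52) and Daxx (0.51) lay outside it. The range thus does not set Chaf1a and Asf1b apart from most of the 10 genes. Whether the share of dividing cells moved them was not tested.

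**Figure D5:**
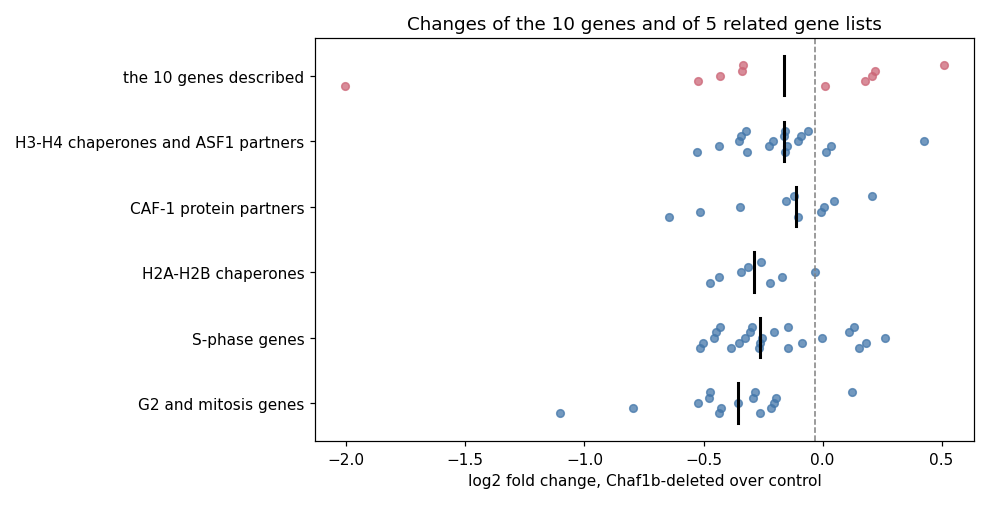
Log2 fold change of the 10 genes and of the genes of 5 related lists, Chaf1b-deleted over control, from edgeR, with 1 point per gene, black bars for the medians and a dashed line for the median of all genes tested (-0.03). The medians of the lists ran from -0.11 to -0.36, and Chaf1b (-2.01) was below all 74 listed genes.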

How the data were processed

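The authors sequenced ribosome-depleted, strand-specific total RNA, aligned reads to mm9 with STAR and counted them per gene with HTSeq, and the deposited values are raw counts, 1 library each. The annotation release and strand setting are not given in the sources used here. Lines that name no gene were left out of the totals. Reads on no feature made up 42.3% and 42.1% of uniquely aligned reads in control replicates 1 and 2. In Chaf1b-deleted replicates 1 and 2 they made up 35.8% and 48.3%, so the deleted libraries held both the lowest and the highest share. IL6 is given as in the sample labels, and the study's methods give a lower concentration.

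From the counts, edgeR 4.0.16 in R 4.3.3 (limma 3.58.1) kept genes by its expression filter (minimum count 10), applied TMM factors (0.926 to 1.06) and compared the groups by the classic quasi-likelihood test without a covariate, fitted and Benjamini-Hochberg adjusted over all genes. Called means at least 1.5-fold with an adjusted p under 0.05. The fit was first tested on simulated data. No 2 libraries agreed within sampling noise (lowest chi-square per degree of freedom 44.4).

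Names and exon lengths came from the NCBIM37 annotation, which names 33068 of the identifiers. Supt16, Supt6, Spi1 and Adgre1 were matched by synonym. The members and lists were chosen with earlier results of these data known. The genes named were the 10 genes, the extremes of each related list and of the HSPC, neutrophil and monocyte markers, 2 flanking genes on each side of Chaf1b, genes that share exon bases with a member, and the 5 nearest to Chaf1b by Euclidean distance between log2 CPM values (prior count 2). The remaining named markers are the most abundant of their list in some library, were called by a tool or without Chaf1b-deleted replicate 1, had 0 counts or, for Kit, encode the receptor used for enrichment. The alternatives were other scalings, filters and tests (DESeq2 1.42.0 among them), a replicate block, other thresholds and each library left out.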

Additional observations from a re-analysis of the deposited data

How the results depend on the processing

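Of the 130 log2 fold changes of the 10 genes under alternatives, 124 kept their direction and their side of the threshold, 2 lost the call and 4 changed sign. The 2 lost calls were of Chaf1b, at -2.00 (edgeR adjusted p = 0.0651) with 10 counts needed in every library and at -1.98 (edgeR adjusted p = 0.0590) with a replicate block, and the cause was not tested. Leaving out each library, Chaf1b lay between -2.24 and -1.74 with adjusted p up to 0.0251. Ubn1 changed sign with library size only (-0.019), and with each library left out it ranged from -0.12 to 0.14. Daxx ranged from -0.13 to 0.97.

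The number of members called (1) was 0 at 2-fold with an adjusted p under 0.01, with 10 counts in every library and with the replicate block, and 1 with any library left out. The 62 genes called became 28 with DESeq2 size factors, 31 with library size only, 887 with no low-count filter (31399 genes tested), 3 with 10 counts in every library (14240 tested), 503 with DESeq2, 553 with edgeR's exact test, 14 with the replicate block, 0 at 2-fold and 0.01, and 131 to 366 with a library left out. Genes called lower (1) became 0 with 10 counts in every library or the replicate block, 79 with no low-count filter, and 6 to 42 with a library left out. Of the 74 related genes, 1 was called with no low-count filter, with DESeq2 and with the exact test, and 0 to 1 with a library left out. Same-numbered libraries did not deviate together (r = 0.013 across 16500 genes). Because Chaf1b-deleted replicate 1 stood apart from the other libraries, this value cannot tell whether same-numbered libraries were prepared together. Dropping a library leaves 1 in its group, assumed to vary like the other group.

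With 2 libraries a group, the SE of the 10 log2 fold changes was 0.19 to 0.34, and no limit of detection was computed.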
